A study of Homo sapiens with 12 samples.

Results

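The genes described here are the 5 subunits of the transcription factor NF-kB and 5 of the genes that restrain or modulate it, 10 of the 18417 genes measured. They were chosen by name, with earlier results of these data known: the canonical subunits NFKB1, REL and RELA, the noncanonical subunits NFKB2 and RELB, the inhibitors NFKBIA, NFKBIB and NFKBIE, the ubiquitin-editing enzyme TNFAIP3 (A20) and the signalling adaptor TRAF1. Every one of the 10 had 1 probe set with a single gene symbol. The cells were EA.hy 926, 1 established human line that arose from a fusion of umbilical vein endothelium with A549 lung carcinoma cells. Hi cells were grown in Medium 199 with folic acid added to 9 uM, the usual level for the line, and Lo cells were a parallel culture adapted to the 23 nM folic acid that this medium contains on its own. At confluence the medium was renewed, and 24 h later cells of each kind received 0.5 uM pemetrexed for 48 h or served as controls. Pemetrexed is an antifolate drug that blocks the synthesis of thymidylate and purines. The 4 groups (Hi control, Hi pemetrexed, Lo control and Lo pemetrexed) had 3 biological replicates each, with total RNA of each on 1 array. The series asks how pemetrexed affects inflammatory genes when folate is low.

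NF-kB proteins are dimers that wait in the cytoplasm, bound by IkB inhibitors or held as long precursors. In the canonical arm, receptors for tumour necrosis factor, interleukin 1 or bacterial products activate the IKK kinase complex, IkB proteins are destroyed, and dimers of RELA or REL with p50 (from NFKB1) enter the nucleus. In the noncanonical arm, receptors such as CD40 and the lymphotoxin beta receptor stabilise the kinase NIK (MAP3K14), p100 (from NFKB2) is trimmed to p52, and p52 pairs with RELB. In endothelium NF-kB is known for switching on adhesion molecules and chemokines. Genes for IkB alpha, A20, NFKB2, RELB and TRAF1 are among the textbook targets of NF-kB itself, which makes the pathway self-limiting.

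The RefSeq promoter table (GRCh38.p14) shows the sequence element that NF-kB dimers bind, the kB consensus, directly upstream of many of these genes, and the stretches below are printed to show where it lies. The 250 bases before each listed transcription start were searched on both strands for the 10-base consensus. It occurred in 490 of 35116 such windows in the table (1.40%), or upstream of 471 of 27305 genes (1.72%). Among the 10 genes 8 had a window, 15 windows in all, and 6 genes had a match in 7 of these windows. RELB and NFKBIE were not in the table. Capitals mark the matched letters, read 5′ to 3′ on the gene's strand, and a match is a description of letters, not evidence of binding.
NFKB1, chr4:102501259-102501358, plus strand, the 100 bases before its first of 2 listed starts: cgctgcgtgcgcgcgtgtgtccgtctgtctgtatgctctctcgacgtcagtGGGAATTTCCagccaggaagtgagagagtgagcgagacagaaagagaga
NFKB2, chr10:102394462-102394491, plus strand, before the second of 3 starts: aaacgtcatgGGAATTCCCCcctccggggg
NFKB2, chr10:102394490-102394519, plus strand, before the same start: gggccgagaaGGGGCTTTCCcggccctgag
NFKB2, chr10:102395674-102395703, plus strand, before the third start: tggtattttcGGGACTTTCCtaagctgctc
REL, chr2:60881474-60881573, plus strand, the 100 bases before its start: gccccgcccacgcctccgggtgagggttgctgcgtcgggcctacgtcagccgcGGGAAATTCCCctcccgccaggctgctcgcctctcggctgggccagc
NFKBIA, chr14:35404750-35404849, minus strand, the 100 bases before its start: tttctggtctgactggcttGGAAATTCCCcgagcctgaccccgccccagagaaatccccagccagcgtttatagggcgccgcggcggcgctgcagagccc
NFKBIB, chr19:38899931-38899960, plus strand, before the second of 2 starts: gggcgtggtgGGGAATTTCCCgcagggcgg
TNFAIP3, chr6:137867159-137867258, plus strand, the 100 bases before its start: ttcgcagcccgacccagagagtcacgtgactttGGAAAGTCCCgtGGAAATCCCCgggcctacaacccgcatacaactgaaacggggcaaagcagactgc

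The matches lay close to the start: 49 to 40 bases before it for NFKB1, 81 to 72 before it for NFKBIA, and 67 to 58 and 55 to 46 before it for TNFAIP3. In REL and NFKBIB 11 letters are in capitals because overlapping matches on the 2 strands are shifted by 1 base. TNFAIP3 and NFKB2 were the members with more than 1 separate match. The windows of RELA (2) and TRAF1 (3) held no match to the form searched, which does not exclude other kB forms there. A match was thus present upstream of NFKB1, REL and NFKBIA, whose transcripts did not rise in any comparison below, as well as upstream of NFKB2, NFKBIB and TNFAIP3, whose transcripts did.

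The 12 arrays had medians of 7.24 to 7.33 (log2). A principal component analysis of all genes put a pair of control arrays out of place on its first component, which held 61.1% of the variance. Replicate 3 as labelled of the Hi controls had a score of 8.94, near Lo controls 1 and 2 (7.18 and 6.75). Replicate 3 as labelled of the Lo controls had -19.3, where the other Hi arrays had -20.1 to -17.8 and the Lo pemetrexed arrays 30.4 to 32.2. Whether their labels were exchanged was not tested. Both keep their labels here, so every comparison with all control arrays rests on those labels. Many, though not all, of the results that rest on them are also given without both. Where a value is given with all control arrays alone, its size can depend on both arrays. That omission was made from the values, on a component that separates Lo from Hi cells. It can narrow the spread within the control groups, so calls and p-values without both arrays are description only. Of 12 endothelial marker genes 11 were brighter than the median gene by their mean over the 12 arrays. Their mean level per array was 9.95 to 10.1 in Lo pemetrexed and 10.3 to 11.1 in the other groups. In treated Lo cells 4 of the 12 fell (33.3%, against 10.7% of all genes called): TEK, ERG, EGFL7 and CDH5. CDH5 passed in 5 of the 12 fits that leave out 1 array. Without both arrays out of place 6 of the 12 fell (50%, against 11.0% of all genes). Between treated Lo and Hi cells 10 of the 12 were lower with all arrays (83.3%, against 22.3% of all genes). Of 9 epithelial and lung carcinoma markers 4 were brighter than the median gene, EPCAM and CDH1 lay below the first quartile of genes, and the mean per array was 8.81 to 8.85 in Lo pemetrexed, 8.53 to 8.63 in Hi pemetrexed and 8.54 to 8.87 in the controls. Of 11 leukocyte markers 1, LYZ, was brighter than the median gene, the defining marker PTPRC was below the first quartile, and the mean per array was 6.34 to 6.52 over all groups. LYZ itself was at 8.24 to 8.68 on the Lo pemetrexed arrays and at 9.05 to 9.53 on the 9 others, and fell in Lo cells by 0.81 on the log2 scale (-0.81 ± 0.13, limma adjusted p = 0.00177). Whether these marker levels have a part in the results below was not tested.

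Pemetrexed in Lo cells raised the noncanonical subunits NFKB2 and RELB, the inhibitors NFKBIB and NFKBIE, TNFAIP3 and TRAF1, and by a small margin RELA. NFKB1 and REL did not pass the test, nor did NFKBIA, the gene of the main inhibitor IkB alpha. In all, 7 of the 10 genes rose and 0 fell at a Benjamini-Hochberg adjusted p under 0.05 in limma, against 5.60% of all 18417 genes called higher and 5.14% called lower (10.7% in all). Without both arrays out of place 6 rose, RELA having dropped out, against 11.0% of all genes called. The median change of the 10 genes was 0.58 on the log2 scale, beside 0.02 for all genes. In Hi cells 0 of the 10 passed, where 0% of all genes did. In bulk RNA such as this, more or less RNA per cell cannot be told apart from a change in the number of cells that make it.

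**Figure D1:**
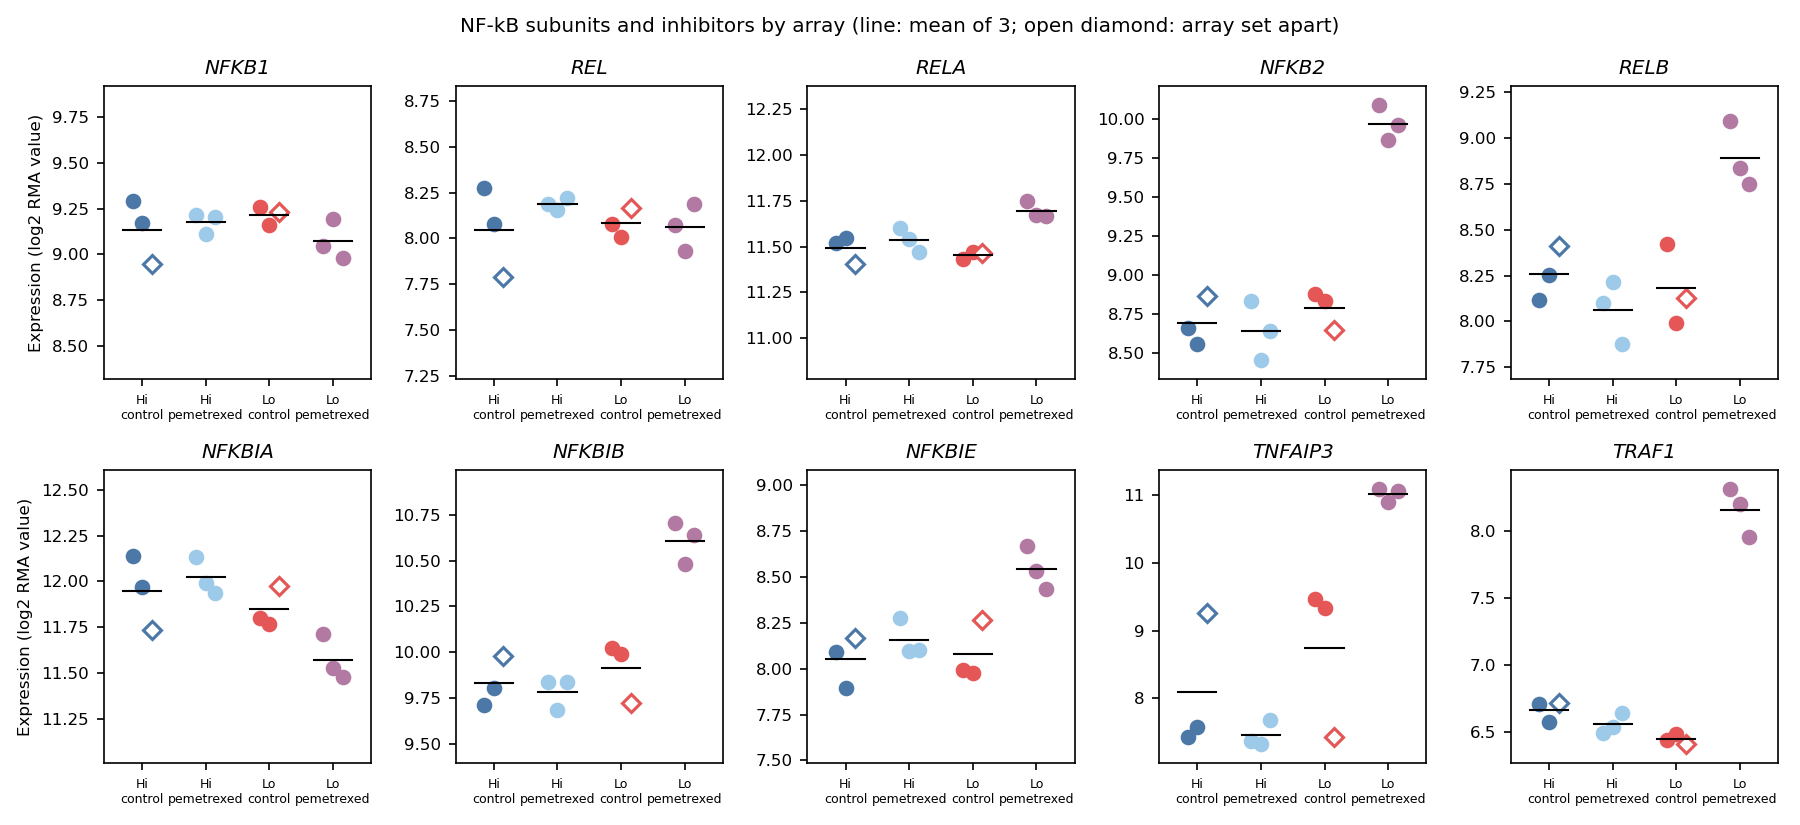
Log2 RMA values (vertical axes) of the 10 genes on every array, by group (horizontal axes); each point is 1 array, the line is the mean of 3, and open diamonds are the control arrays labelled replicate 3, which lay out of place. The Lo pemetrexed arrays lie above every other array for NFKB2, RELB, RELA, NFKBIB, NFKBIE, TNFAIP3 and TRAF1, and below every other array for NFKBIA. The 4 groups overlap for NFKB1 and REL.

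NFKB2 encodes the p100 precursor, which is both the source of p52 and an inhibitor of other subunits. Its log2 values were 8.88, 8.83 and 8.65 on the Lo control arrays and 10.09, 9.86 and 9.96 on the Lo pemetrexed arrays. In Hi cells they were 8.66, 8.56 and 8.87 in controls and 8.83, 8.46 and 8.64 with the drug. The 3 treated Lo arrays stood above all 9 others, which overlapped with each other. The rise in Lo cells was 1.18 ± 0.11 (log2 change ± standard error of the model), or 2.27-fold (limma adjusted p = 4.82e-05), and 1.11 ± 0.11 without both arrays out of place. The 95% interval in Hi cells was -0.29 to 0.19 around a change of -0.05.

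RELB, the partner of p52, moved in the same comparison by less. The Lo controls read 8.42, 7.99 and 8.13, and the Lo pemetrexed arrays 9.09, 8.83 and 8.75. Hi controls read 8.12, 8.25 and 8.41 and Hi pemetrexed arrays 8.10, 8.22 and 7.88. Treated Lo arrays were again above the 9 others, with the closest gap to Lo control replicate 1. RELB rose by 0.71 ± 0.13 in Lo cells (1.64-fold, limma adjusted p = 0.00408), and by 0.68 ± 0.14 without both arrays. In Hi cells its change was -0.20 ± 0.13 and did not pass.

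The canonical subunits gave a different picture. NFKB1, the source of p50, read 9.26, 9.16 and 9.23 in Lo controls and 9.05, 9.19 and 8.98 in Lo pemetrexed arrays. In Hi cells it read 9.29, 9.17 and 8.95 in controls and 9.21, 9.11 and 9.20 with the drug. All 4 groups overlapped, and the change in Lo cells was -0.15 ± 0.09 (95% interval -0.34 to 0.05, limma adjusted p = 0.386).

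REL, the gene of c-Rel, likewise overlapped between groups. Its Lo controls were at 8.08, 8.01 and 8.17 and its Lo pemetrexed arrays at 8.07, 7.93 and 8.19. Hi controls were at 8.27, 8.08 and 7.79, the last being the array out of place, and Hi pemetrexed arrays at 8.19, 8.16 and 8.22. The change in Lo cells was -0.02 ± 0.11, with a 95% interval from -0.26 to 0.22. This interval leaves out a rise as large as that of NFKB2 or RELB, but not a smaller change.

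RELA, the gene of p65, was the canonical subunit that passed, by a margin that depended on single arrays. It read 11.43, 11.47 and 11.46 in Lo controls and 11.75, 11.67 and 11.67 in Lo pemetrexed arrays. Hi controls read 11.52, 11.55 and 11.41 and Hi pemetrexed arrays 11.60, 11.54 and 11.47. The treated Lo arrays were the brightest 3 of 12, yet the rise was 0.24 ± 0.07, or 1.18-fold (limma adjusted p = 0.0355). The size stayed at 0.24 ± 0.07 without both arrays out of place, where the adjusted p was 0.0505. Leaving out 1 array at a time, the call was lost with any array of either Lo group omitted and with Hi pemetrexed replicate 2 omitted (limma adjusted p up to 0.126).

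**Figure D2:**
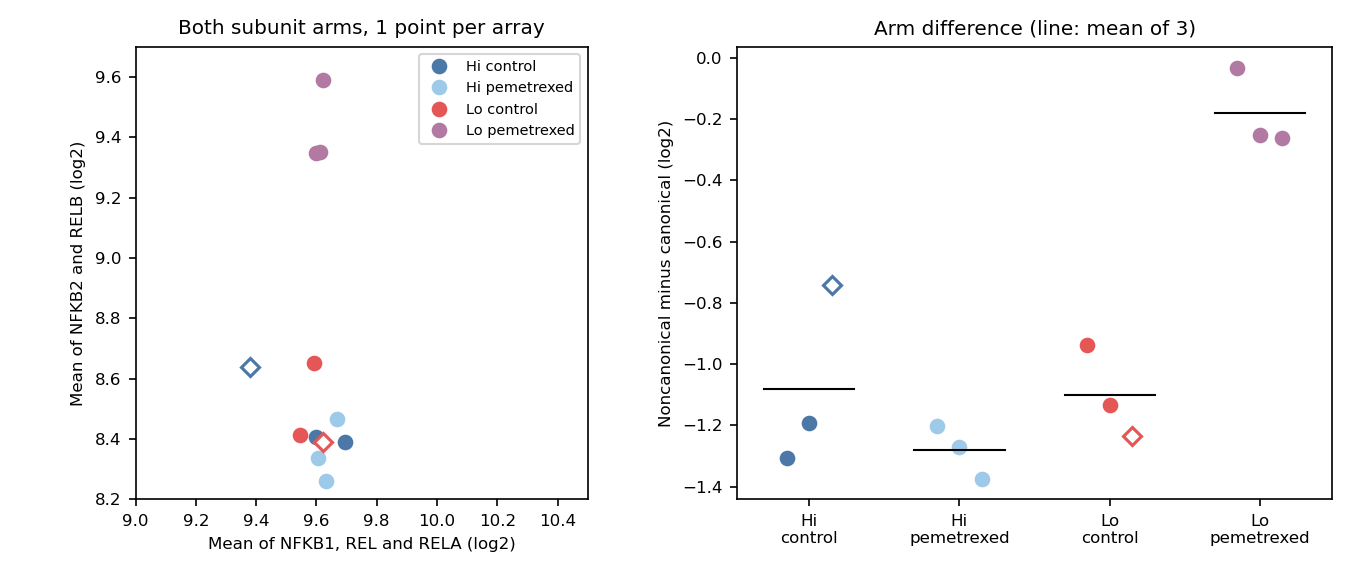
Left, the mean log2 value of NFKB2 and RELB (vertical) against that of NFKB1, REL and RELA (horizontal), 1 point per array; right, the first mean minus the second by group, with a line at the mean of 3 (open diamonds, arrays out of place). The 3 Lo pemetrexed arrays move up and not sideways, with differences of -0.26 to -0.03 against -1.37 to -0.74 on the 9 others.

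Both arms can be set against each other on each array as the mean of NFKB2 and RELB minus the mean of NFKB1, REL and RELA. Probe sets differ in brightness, so the sign of this difference carries no meaning and only its shifts between arrays do. It was -1.31, -1.19 and -0.74 in Hi controls, -1.20, -1.27 and -1.37 in Hi pemetrexed, -0.94, -1.13 and -1.23 in Lo controls and -0.03, -0.25 and -0.26 in Lo pemetrexed arrays. The treated Lo arrays stood apart from the other 9, of which the array labelled Hi control replicate 3 was the highest. The mean was -0.18 ± 0.13 (SD, n = 3) with the drug and -1.10 ± 0.15 without it in Lo cells. The canonical mean was 9.61 ± 0.01 and 9.59 ± 0.04 in these groups (SD, n = 3 each). The noncanonical mean was 9.43 ± 0.14 and 8.48 ± 0.15 (SD, n = 3 each). The canonical mean combines changes of 0.24 in RELA, which passed, and of -0.15 in NFKB1 and -0.02 in REL, which did not. The shift of the arm difference thus lay in the noncanonical mean. No test was made of this difference, because it is a score over chosen genes.

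The IkB inhibitors did not move as 1 group. NFKBIA is the inhibitor gene best known for rapid induction by NF-kB. Its Lo controls were at 11.80, 11.77 and 11.97, and its Lo pemetrexed arrays at 11.72, 11.53 and 11.48. Hi controls were at 12.14, 11.97 and 11.74, and Hi pemetrexed arrays at 12.13, 11.99 and 11.94. The treated Lo arrays were the 3 dimmest of the 12, the opposite side from the other inhibitors. The change of -0.28 ± 0.11 in Lo cells did not pass (limma adjusted p = 0.135), nor did -0.21 ± 0.09 without both arrays (adjusted p = 0.204).

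NFKBIB, the gene of IkB beta, an inhibitor not known for fast feedback, was higher on all treated Lo arrays. Lo controls read 10.02, 9.99 and 9.72, and Lo pemetrexed arrays 10.70, 10.48 and 10.64. Hi controls read 9.71, 9.81 and 9.98 and Hi pemetrexed arrays 9.84, 9.69 and 9.84. The lowest treated Lo array was above the highest of the 9 others. The rise in Lo cells was 0.70 ± 0.10 (1.62-fold, limma adjusted p = 8.58e-04), and 0.60 ± 0.09 without both arrays.

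NFKBIE, the gene of IkB epsilon, rose by less. Lo controls were at 7.995, 7.97 and 8.27, and Lo pemetrexed arrays at 8.67, 8.53 and 8.43. Hi controls were at 8.09, 7.90 and 8.17, and Hi pemetrexed arrays at 8.27, 8.10 and 8.10. Treated Lo arrays did not overlap with any other group. The rise in Lo cells was 0.47 ± 0.10 (1.38-fold, limma adjusted p = 0.0116) and 0.56 ± 0.09 without both arrays, and it lost its call without Lo pemetrexed replicate 1 (adjusted p = 0.055).

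TNFAIP3 encodes A20, which removes activating ubiquitin chains from upstream adaptors and ends the canonical signal. Its Lo controls were at 9.47, 9.33 and 7.43 and its Lo pemetrexed arrays at 11.08, 10.90 and 11.06. Hi controls were at 7.44, 7.58 and 9.26, and Hi pemetrexed arrays at 7.37, 7.33 and 7.68. The arrays out of place held the reading of the opposite folate level: the one labelled Hi control replicate 3 lay beside Lo controls 1 and 2, and the one labelled Lo control replicate 3 among the Hi arrays. With all arrays TNFAIP3 rose in Lo cells by 2.27 ± 0.51 (4.81-fold, 95% interval 1.17 to 3.36, limma adjusted p = 0.0123). Without both arrays the rise was 1.61 ± 0.11 (3.05-fold), so the size depends on them. Leaving them out removes the readings that widen the spread of TNFAIP3, so that fit gives a size and no p-value here. The call held in all 12 fits that leave out 1 array (1.61 to 2.63) and was lost without limma's moderation of variances (adjusted p = 0.0747). In Hi cells the change was -0.63 ± 0.51 with all arrays and -0.05 ± 0.11 without both.

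TRAF1, an adaptor that joins tumour necrosis factor receptor complexes, had the smallest p of the 10 genes. It read 6.44, 6.49 and 6.41 in Lo controls and 8.32, 8.21 and 7.96 in Lo pemetrexed arrays. Hi controls read 6.71, 6.57 and 6.71 and Hi pemetrexed arrays 6.49, 6.54 and 6.64. The treated Lo arrays stood more than 1 log2 unit above the 9 others, and the rise in Lo cells was 1.72 ± 0.09 (3.29-fold, limma adjusted p = 7.69e-07). The controls were dim, with 33% of genes dimmer than TRAF1 on average over the 12 arrays, and a dim probe set can understate a fold change. The arrays out of place made little difference (1.70 ± 0.10 without both).

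**Figure D3:**
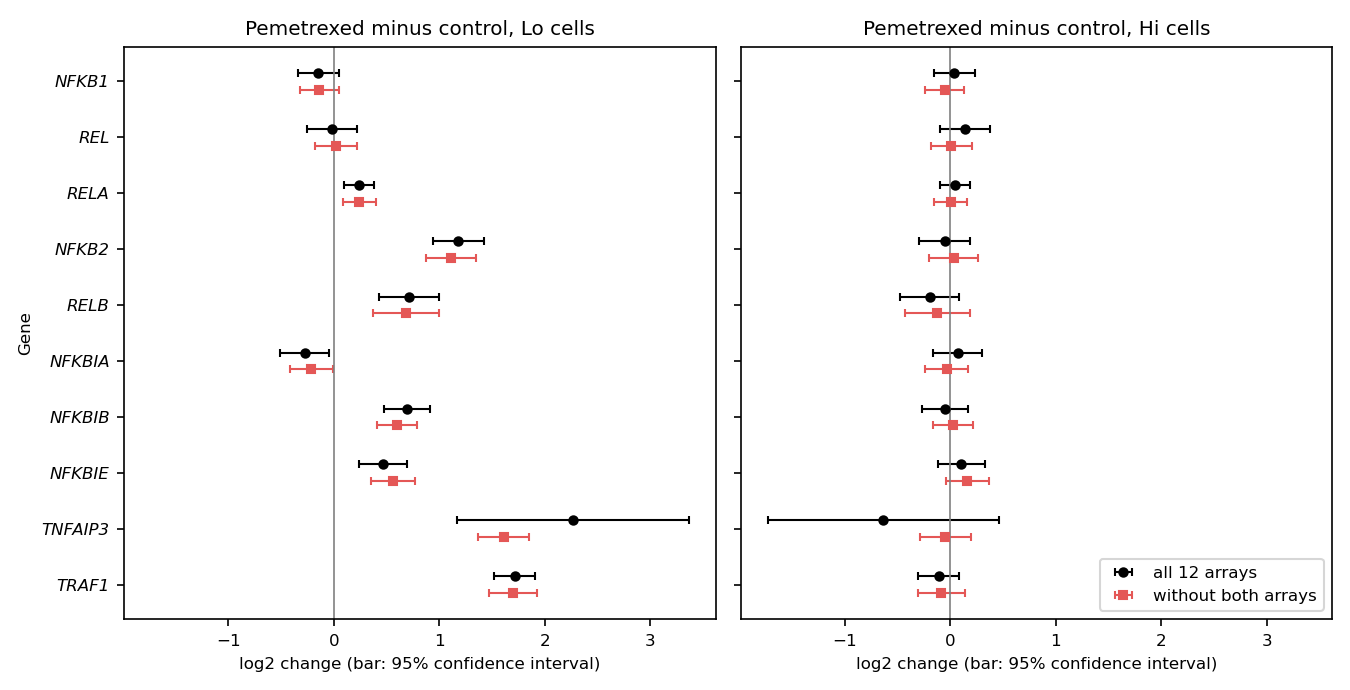
Log2 change with pemetrexed (horizontal axis) in Lo cells (left) and Hi cells (right) for each gene (vertical axis), with 95% confidence intervals as bars; black circles are all 12 arrays and red squares the 10 arrays left without both control arrays out of place. TRAF1, NFKB2, RELB, NFKBIB, NFKBIE, RELA and TNFAIP3 lie above 0 in Lo cells. NFKBIA lies below 0 there with intervals that leave out 0, although it did not pass after adjustment. Every interval in Hi cells includes 0.

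In Hi cells 0 of the 10 genes passed with limma, and 0 had an unadjusted p under 0.05; of all 18417 genes 0% passed (0 genes) and 266 (1.44%) had an unadjusted p under 0.05. The changes ranged from -0.63 (TNFAIP3) to 0.14 (REL), with a median of 0.00. An interaction contrast set the response of Lo cells against that of Hi cells. In it 5 of the 10 genes passed, all with the larger response in Lo cells, against 4.81% of all genes (2.57% with a positive difference), and the count was again 5, against 4.16%, without both arrays out of place. With all arrays these were TRAF1 at 1.83 ± 0.13 (limma adjusted p = 2.58e-05), NFKB2 at 1.23 ± 0.16 (adjusted p = 0.00117), NFKBIB at 0.74 ± 0.14 (adjusted p = 0.0115), RELB at 0.91 ± 0.18 (adjusted p = 0.0163) and TNFAIP3 at 2.90 ± 0.72 (adjusted p = 0.0385). Without limma's moderation of variances 2 of the 10 passed, TRAF1 and NFKB2, with RELB, NFKBIB and TNFAIP3 at adjusted p = 0.0798, 0.055 and 0.153. The share of all genes called in that fit is not given here, so the lower count is not read as a result about these genes. With the replicate block TNFAIP3 was at limma adjusted p = 0.0621.

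For TNFAIP3 the interaction was 1.66 ± 0.16 without both arrays out of place, a size given as description. With 1 array left out at a time it lost the call without Hi control replicate 3, any Hi pemetrexed array or any Lo pemetrexed array (adjusted p up to 0.0911). RELB stayed past the threshold without both arrays, at 0.80 ± 0.20 (adjusted p = 0.0457). The difference for RELA was 0.19 ± 0.09 (adjusted p = 0.287), for NFKBIE 0.36 ± 0.15 (adjusted p = 0.190) and for NFKBIA -0.35 ± 0.15 (adjusted p = 0.229). With the replicate number as a block in the 10 arrays without those out of place, NFKBIE passed at 0.40 (adjusted p = 0.0245). With all arrays none of these 3 passed, and for NFKBIE the call thus depends on the fit. NFKB1 (-0.19 ± 0.13) and REL (-0.16 ± 0.15) did not pass either.

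Low folate without the drug was compared between Lo and Hi controls, a comparison that also holds any other difference between the separately kept cultures. With all arrays 0 of the 10 genes passed in limma, where 0% of all genes passed as well (387 genes, 2.10%, had an unadjusted p under 0.05). TRAF1 was the 1 gene of the 10 in that class. Its Lo controls lay below its Hi controls, at a difference of -0.22 ± 0.09. Without both arrays out of place the TRAF1 difference was -0.18 ± 0.11, no longer in that class (limma unadjusted p = 0.141). With all arrays TNFAIP3 differed by 0.65 ± 0.51. Without both arrays out of place TNFAIP3 was higher in Lo controls by 1.89 ± 0.12 (3.72-fold, limma adjusted p = 4.96e-06), the 1 of 10 genes to pass among 7.17% of all genes. The arrays were left out because they lay with the opposite folate level, and TNFAIP3 was itself at the opposite level on them. The omission therefore favours a difference between the controls, and the p-values of this comparison without both arrays are given as description and support nothing.

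In those 10 arrays NFKB2 and NFKBIB were 0.25 higher in Lo controls (± 0.12 and ± 0.09, limma adjusted p = 0.304 and 0.177), and NFKBIA 0.27 lower at -0.27 ± 0.10 (adjusted p = 0.175), none past the threshold. RELB differed by 0.02 ± 0.16 and NFKBIE by -0.01 ± 0.10. With the replicate number as a block, which pairs these 10 arrays, NFKBIA passed at the same -0.27 (adjusted p = 0.0301), under the same limit. In the 10 arrays kept, TNFAIP3 read 7.33 to 7.68 in Hi cells with or without the drug. It read 9.33 and 9.47 in Lo controls and 10.90 to 11.08 in Lo pemetrexed, which makes 3 steps. Both arrays left out break these steps as labelled, at 9.26 (Hi control replicate 3) and 7.43 (Lo control replicate 3). The steps thus follow from the omission and are not a separate result. TRAF1 had no such middle step, since its Lo controls lay below its Hi controls.

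Between treated Lo and Hi cells none of the arrays compared was out of place. The model's spread still came from all 12 arrays, so standard errors and p-values depend on both control arrays out of place. For TNFAIP3 the standard error was 0.51 with all arrays and 0.10 without both, at the same change. With all arrays 6 of the 10 genes were higher in Lo cells and 1 was lower, against 22.3% of all genes called (11.3% higher and 11.0% lower). Endothelial markers moved in the same comparison, with 10 of 12 lower and 0 higher, and their part in the results was not tested. TNFAIP3 was higher by 3.55 ± 0.51 (11.7-fold, limma adjusted p = 5.04e-04), TRAF1 by 1.61 ± 0.09 (3.04-fold, adjusted p = 1.73e-06) and NFKB2 by 1.32 ± 0.11 (2.50-fold, adjusted p = 2.05e-05). RELB was higher by 0.83 ± 0.13 and NFKBIB by 0.82 ± 0.10 (both 1.77-fold, adjusted p = 9.29e-04 and 1.86e-04). NFKBIE was higher by 0.39 ± 0.10 (adjusted p = 0.0168), a call lost without Hi pemetrexed replicate 2 or 3 or Lo pemetrexed replicate 1 (adjusted p up to 0.0699).

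NFKBIA was the gene that fell here, by 0.45 on the log2 scale (-0.45 ± 0.11, 1.36-fold lower in Lo cells, limma adjusted p = 0.00987). Its 3 treated Lo arrays (11.72, 11.53 and 11.48) lay below all 3 treated Hi arrays (12.13, 11.99 and 11.94). RELA at 0.16 ± 0.07 (adjusted p = 0.116), NFKB1 at -0.10 ± 0.09 and REL at -0.12 ± 0.11 did not pass. The same 7 genes passed without both control arrays, where 27.7% of all genes did. This comparison and that of the drug in Lo cells share the Lo pemetrexed arrays, so they are not separate evidence.

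Over the 12 arrays NFKB2 tracked NFKBIB (Pearson r = 0.985), TRAF1 (0.959), TNFAIP3 (0.916) and RELB (0.897), and ran against NFKBIA (-0.795). NFKBIA ran most closely against TNFAIP3 (-0.927, and -0.930 in the 10 arrays without those out of place). These arrays share the 4 conditions, so the values describe the group pattern. Of the 5 genes whose group means span over 0.5, NFKB2 was most like MAK (0.990), CLDN12 and FAM53C (both 0.988), and RELB most like PDE6C (0.981), ADAMTS16 (0.950) and UNC5B (0.948). NFKBIB was most like RND1, ZNF473CR and VEGFA (0.986, 0.986 and 0.985), and TRAF1 most like SERTAD1, DLX2 and TGFA (0.978, 0.976 and 0.975). TNFAIP3 was most like the interleukin 33 receptor gene IL1RL1 (0.996), UBASH3B and VSIG1 (both 0.994).

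The surrounding pathway was described with 8 lists of 87 measured genes (9 further listed genes were not analysed here). In Hi cells 0 of the 87 passed, where 0% of all genes did. In treated Lo cells 14 of the 87 rose and 2 fell (18.4%, against 10.7% of all genes). Single arrays moved this count: it was 25 with Hi control replicate 3 omitted, 9 with Lo pemetrexed replicate 2 omitted, and 8 with either Lo pemetrexed or Lo control replicate 3 omitted. Shares of all genes called in those fits are not given here. Without both arrays out of place 17 rose and 2 fell (21.8%, against 11.0% of all genes).

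**Figure D4:**
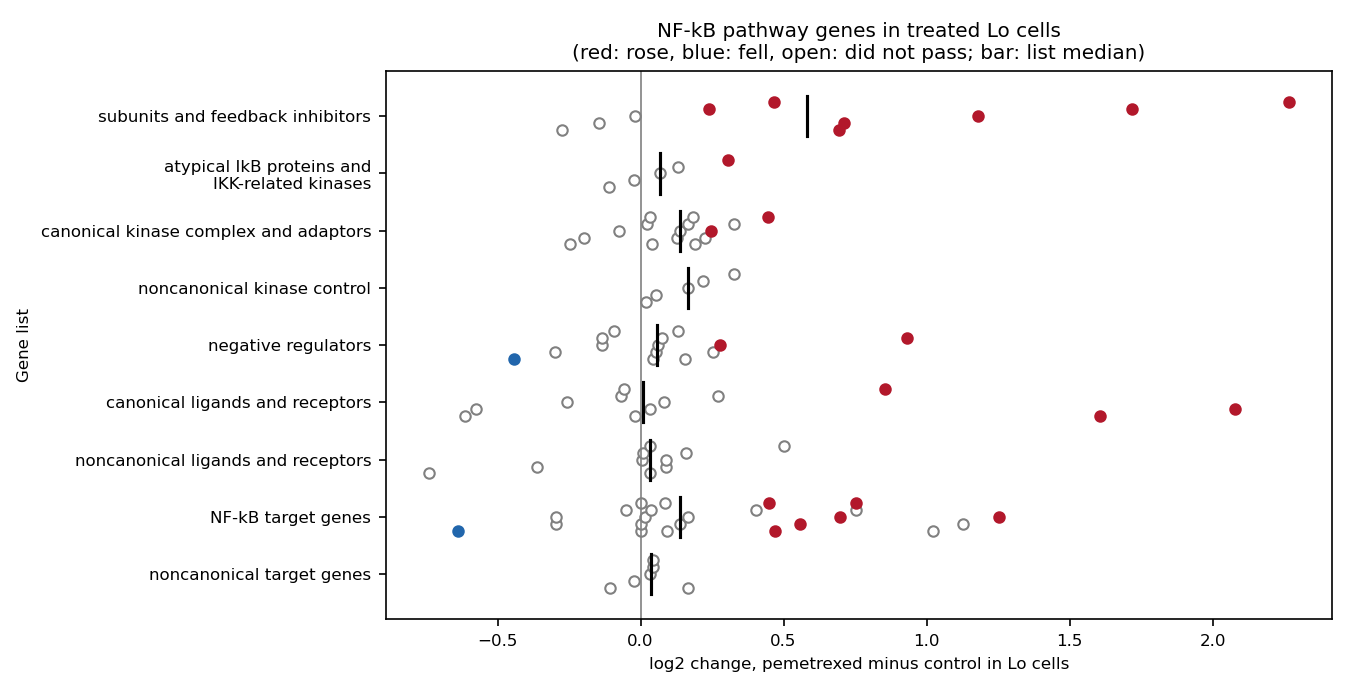
Log2 change with pemetrexed in Lo cells (horizontal axis) for every measured gene of the 10 subunits and inhibitors and of 8 pathway lists (vertical axis); red points rose, blue points fell, open points did not pass, and the bar is the list median. The median is 0.58 for the subunits and inhibitors and between 0.01 and 0.17 for the 8 lists.

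Upstream of the canonical arm 3 of 12 ligands and receptors rose and 0 fell (25%, against 10.7% of all genes called, list median 0.01). All 3 were genes of the interleukin 1 system. IL1A, the alarmin form, read 10.18, 10.25 and 8.87 in Lo controls and 11.44, 11.37 and 11.32 with the drug, a rise of 1.61 ± 0.32 (limma adjusted p = 0.00674). IL1B rose by 2.08 ± 0.53 (adjusted p = 0.0242) and the receptor chain gene IL1RAP by 0.85 ± 0.22 (adjusted p = 0.0276). Both lost the call without Lo control replicate 3 or any 1 Lo pemetrexed array (adjusted p up to 0.0890 and 0.0959). Without both arrays out of place IL1A rose by 1.16 ± 0.08, IL1B by 1.47 ± 0.15 and IL1RAP by 0.60 ± 0.14, sizes given as description only.

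Of 15 genes of the canonical kinase complex and its adaptors 2 rose and 0 fell (median 0.14). That is 13.3%, near the 10.7% of all genes called. TAB3, a subunit of the kinase complex above IKK, rose by 0.44 ± 0.10 (limma adjusted p = 0.0135), a call lost without Lo control replicate 1 or Lo pemetrexed replicate 3 (adjusted p up to 0.0661). MYD88, the adaptor of interleukin 1 and Toll-like receptors, rose by 0.24 ± 0.07 (adjusted p = 0.0478), and passed in 3 of the 12 fits that leave out 1 array (adjusted p up to 0.142). Among treated cells IKBKB was higher in Lo cells by 0.28 ± 0.08 and MAP3K7 lower at -0.32 ± 0.10 (adjusted p = 0.0183 and 0.036). IKBKB passed in 9 and MAP3K7 in 7 of the 12 such fits (adjusted p up to 0.0802 and 0.115).

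Of 5 measured genes that control the noncanonical kinase 0 rose and 0 fell (median 0.17). With 10.7% of all genes called, a count of 0 among so few is not a result about them. MAP3K14, which encodes NIK, read 8.03, 7.94 and 8.27 in Lo controls and 8.25, 8.09 and 8.07 with the drug, a change of 0.05 ± 0.10 (limma adjusted p = 0.811). TRAF3, the adaptor that keeps NIK low, changed by 0.02 ± 0.12 (adjusted p = 0.958). BIRC3 and TRAF2 were not analysed here.

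Of 10 noncanonical ligands and receptors 0 passed in treated Lo cells (median 0.03), too few to be read against the 10.7% of all genes called. CD40 was among them at -0.74 ± 0.35, with Lo controls at 7.82, 7.64 and 8.69, the last being an array out of place. Between treated Lo and Hi cells CD40 was lower by 1.55 on the log2 scale (-1.55 ± 0.35, limma adjusted p = 0.00775) and TNFRSF11A, the gene of RANK, lower at -0.51 ± 0.12 (adjusted p = 0.0106). TNFRSF12A, the receptor gene of TWEAK, was higher by 0.79 ± 0.17 (adjusted p = 0.00561). These 3 of 10 (30%) stand beside 22.3% of all genes called in that comparison.

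Of 14 negative regulators 2 rose and 1 fell (21.4%, against 10.7% of all genes called, median 0.06). CYLD, a deubiquitinase that acts on the same upstream adaptors as A20, read 8.39, 8.70 and 8.41 in Lo controls and 9.11, 9.44 and 9.73 with the drug. It rose by 0.93 ± 0.15 (limma adjusted p = 0.00181), and its interaction was 0.99 ± 0.21 (adjusted p = 0.0213), lost without Lo pemetrexed replicate 3 (adjusted p = 0.0514) and without both arrays out of place (0.86 ± 0.23, adjusted p = 0.0634). ZC3H12A, an RNase that degrades inflammatory transcripts, rose by 0.28 ± 0.08 (adjusted p = 0.0406). SIGIRR, a receptor that damps interleukin 1 signals, fell by 0.44 on the log2 scale (adjusted p = 0.0332). ZC3H12A passed in 3 and SIGIRR in 8 of the 12 fits that leave out 1 array (adjusted p up to 0.162 and 0.141), and neither passed without both arrays.

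Of 5 atypical IkB proteins and IKK-related kinases 1 rose (20%), too few to be read against the 10.7% of all genes called. It was the kinase TBK1 (0.30 ± 0.08, limma adjusted p = 0.0308). The call held in 7 of the 12 fits that leave out 1 array (adjusted p up to 0.129). BCL3, which encodes a nuclear partner of p52 and p50, changed by -0.11 ± 0.12, and NFKBIZ by -0.02 ± 0.09. Neither passed in treated Lo cells.

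Of 23 NF-kB target genes 6 rose and 1 fell in treated Lo cells (30.4%, against 10.7% of all genes; median 0.14). Of 6 targets known for the noncanonical arm 0 passed (median 0.04), too few to be read against 10.7%. GCH1, an enzyme of tetrahydrobiopterin synthesis, read 7.55, 7.67 and 7.06 in Lo controls and 8.58, 8.92 and 8.53 with the drug, a rise of 1.25 ± 0.16 (limma adjusted p = 4.54e-04). ICAM1, an adhesion molecule for leukocytes, rose by 0.75 ± 0.12 (adjusted p = 0.00136), and SOD2, the mitochondrial superoxide dismutase, by 0.56 ± 0.11 (adjusted p = 0.00755). CCL2, a monocyte chemokine, went the other way: it read 11.58, 11.55 and 11.23 in Lo controls and 10.95, 10.78 and 10.72 with the drug, a change of -0.64 ± 0.12 (adjusted p = 0.00352). Known NF-kB targets thus did not move as 1 group, and 16 of the 23 did not pass.

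Between treated Lo and Hi cells 20 of the 87 pathway genes were higher and 10 lower (34.5%, against 22.3% of all genes). Of the 23 targets 11 were higher and 2 lower, with CXCL8 at 2.12 ± 0.38 and PTGS2 at 1.99 ± 0.34 (limma adjusted p = 0.00178 and 0.00156). In the interaction 5 of the 87 were positive and 1 negative (6.9%, against 4.81%): GCH1 at 1.42 ± 0.23, ICAM1 at 0.71 ± 0.17, IL1A, IL1B and CYLD, and CCL2 at -0.65 ± 0.16. The count was 0 without moderation of variances and 19 with the replicate block in the 10 arrays without those out of place. Shares of all genes called in those fits, and in the fits that leave out 1 array, are not given here. Leaving out 1 array gave between 1 (without Lo pemetrexed replicate 3) and 9 (without Hi control replicate 1) in this comparison, and 2 to 4 without any Hi pemetrexed array, another Lo pemetrexed array or Hi control replicate 2. Of these 6 genes GCH1 passed in every one of those 12 fits, and CYLD in 11, IL1A in 6, IL1B in 5, ICAM1 in 4 and CCL2 in 4.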

How the data were processed

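Total RNA was labelled with biotin and hybridised to Affymetrix arrays. The deposited values are log2 expression per probe set, which the authors made with RMA in Partek 6.5, per the submitters' processing notes; RMA settings and an array genome build are not given in the sources used here. Gene names came from the platform's annotation. Of 33297 probe sets, 19460 had 1 symbol, 1754 several and 12083 none listed, and for 769 genes with several probe sets the brightest by mean was used, which gave 18417 genes. No filter or further normalization was applied.

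A model with 1 mean for each group was fitted to all arrays with limma 3.58.1 in R 4.3.3 (eBayes, 8 residual degrees of freedom, 6 without both arrays out of place). The 5 contrasts were two-sided, adjusted by Benjamini-Hochberg over all genes within a contrast, and called under 0.05. Tests were checked on simulated data. Replicates are of 1 cell line, and p-values reflect their spread alone. The number of arrays limits the precision.

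Members and lists were chosen with earlier results of these data known. Named genes are all members, up to 4 called genes of each list with the smallest p per contrast, and a fixed few such as MAP3K14. Genes most like a member are the 3 with the highest Pearson r. The replicate number was no block in the main model. Over all arrays 11 of 18 same-numbered pairs deviated together (r over 0.1, range -0.656 to 0.514). Without both arrays out of place all 13 did (0.115 to 0.543). Blocked results of the 10 arrays are therefore given where they change a call that a member had in the main fit. For pathway genes the block is given as counts only. Alternatives covered the probe set choice, quantile normalization, dim genes, moderation, the block and each array left out. The fit without both arrays was added after the data were seen. Promoter sequences are from RefSeq (GRCh38.p14).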

Additional observations from a re-analysis of the deposited data

Results flagged for a closer look

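A difference between the response of Lo cells to pemetrexed and that of Hi cells singled out 5 of the 10 genes, on the log2 scale and by limma's interaction test with Benjamini-Hochberg adjustment over all genes. The values were 2.90 for TNFAIP3, 1.83 for TRAF1, 1.23 for NFKB2, 0.91 for RELB and 0.74 for NFKBIB, and in each the Lo response was the higher one. Pathway genes with such a difference were IL1B (2.98), IL1A (2.04), GCH1 (1.42), CYLD (0.99) and ICAM1 (0.71) on the positive side and CCL2 (-0.65) on the negative side. Marker genes that passed had negative differences: ALDH1A1 (-1.24), EGFL7 (-0.97), ERG (-0.78), LYZ (-0.78) and TEK (-0.63). No rule that flags single outlying samples was applied here, since groups of 3 arrays are too small for it. With 1 array left out at a time, the call held in 3 of 12 fits for LYZ and in 4 for ICAM1 and CCL2. It held in 5 for TNFAIP3 and IL1B, in 6 for IL1A, in 11 for CYLD and in all 12 for the others.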

How the results depend on the processing

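Of 1035 alternative values of the 10 genes over the 5 contrasts 0 reversed a call, 25 lost it and 5 gained it, and 33 values called in neither fit changed sign. Without variance moderation 2 of the 10 genes passed in the interaction (5 in the main setting). The same setting gave 8 pathway genes in treated Lo cells (main count 16) and 0 in the interaction (main count 6). Leaving out 1 array gave 8 to 25 and 1 to 9 pathway genes in these comparisons. Shares of all genes called in these settings are not given here. Between Lo and Hi controls 0 passed with all arrays. Without both arrays out of place 1 of the 10 genes and 14 pathway genes (16.1%) passed there, against 7.17% of all genes. The limit on dim genes left TRAF1 untested, and the setting with only the compared groups was not run for the interaction.

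With the replicate number as a block and all arrays, 4 of the 10 genes passed in the interaction, with TNFAIP3 at adjusted p = 0.0621; in the other contrasts the block changed no call of the 10 genes. In the 10 arrays without both out of place all 13 same-numbered pairs correlated over 0.1 (0.115 to 0.543). There the block gave 28 pathway genes in treated Lo cells, 19 in the interaction and 19 between controls. Shares of all genes called with the block are not given here, so these counts are not read as a stronger response. Between controls 2 of the 10 genes passed with it, TNFAIP3 and NFKBIA (-0.27, limma adjusted p = 0.0301). NFKBIE then passed in the interaction, at 0.40 (adjusted p = 0.0245).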
